A study of Homo sapiens with 90 samples.

Results

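The change of gene expression between day 30 and day 44 was followed in thawed cultures of HepaRG, a line of human liver progenitor cells that can be matured into a mix of hepatocyte-like and biliary-like cells. The comparison used the libraries whose titles name thawed cells at day 30 without DMSO and thawed cells at day 44 with DMSO, 12 of the 90 libraries of the series. The series set parental HepaRG cells beside cells stably transduced by a lentivirus with CYP2D6, a cytochrome P450 enzyme of drug metabolism, and profiled both by BRB-seq, in which barcoded samples are pooled and read from the 3′ end of their transcripts. The comparison had 4 groups of 3 libraries each. They were parental cells (genotype wt) at day 30 labelled noDMSO, transduced cells (genotype CYP2D6) at day 30 labelled noDMSO, parental cells at day 44 labelled withDMSO, and transduced cells at day 44 labelled withDMSO. Per the labels' protocols, all cells were grown for 2 weeks in William's E medium with serum, penicillin, streptomycin, insulin and hydrocortisone and then differentiated for 2 more weeks with 1.7% DMSO, a solvent that drives and maintains the hepatocyte state of this line. The day and the DMSO label changed together, so their parts in a difference cannot be told apart. How the day count of thawed cells relates to the thaw, whether the transduced cells are 1 clone, and whether the replicates a, b and c are separate cultures are not given in the sources used here, and p-values may therefore measure technical spread.

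Hepatocytes secrete most plasma proteins and lipoproteins and clear drugs through P450 enzymes, and their differentiated state falls away when the cells are detached, stressed or inflamed. Growth factors and stress switch on immediate-early genes such as FOS and EGR1 within minutes, and inflammatory signals switch on chemokine genes through the transcription factor NF-kB. HepaRG cells leave the cell cycle as they mature.

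The 12 libraries held 1532324 to 2237103 counts and 15223 to 16762 genes with a count. The 10 most abundant genes took 14.3 to 19.4% of the counts at day 30 and 16.5 to 23.6% at day 44. CYP2D6, the transduced gene, had 0 to 6 counts in the parental libraries and 9 to 53 in the transduced ones, so no parental library reached the count of any transduced one. All 12 hepatocyte markers checked were at 1 CPM (the usual library-scaled count, here with TMM factors) or more, and their summed level was 69800 to 109000 CPM at day 30 and 79800 to 147000 CPM at day 44. Of 10 biliary and progenitor markers 5 reached 1 CPM, with EPCAM, CFTR and PROM1 among those below it, and the sum was 347 to 408 CPM at day 30 and 328 to 459 CPM at day 44. The defining endothelial genes VWF, CDH5, STAB2, LYVE1 and CLEC4G and the defining leukocyte genes PTPRC, CD163, MARCO, CD3E and CSF1R were under 1 CPM. Of 7 endothelial markers 2 reached it, and the sum was 9.09 to 20 CPM at day 30 and 14.3 to 29.9 CPM at day 44. Of 8 macrophage and leukocyte markers 3 reached it, with sums of 67.1 to 84.6 CPM and 58.5 to 89.2 CPM in that order. Of 10 stellate and fibroblast markers 8 reached it, with sums of 61.5 to 90.2 CPM and 72.2 to 103 CPM. In these bulk samples fewer cells of a type and less RNA per cell cannot be told apart.

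Replicate c stood apart at day 30 in both genotypes. For all 12 genes with the largest falls, the replicate c library was the lowest of the 3 day 30 libraries in parental and in transduced cells, whereas this held for 11.2% of the 12125 genes tested. The level summed over 31 immediate-early genes, of which 26 were tested, was 3330, 2710 and 1420 CPM at day 30 in parental replicates a, b and c. In transduced replicates a, b and c it was 2590, 3380 and 1590 CPM. All day 44 sums were lower, from 349 to 576 CPM. All 12 of the largest falls were also called without replicate c. Calls of the immediate-early, chemokine and cell cycle lists are given with and without replicate c, a step added after the values had been seen.

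Between day 30 and day 44 of thawed cells, 560 of 12125 tested genes (4.62%) were called at an adjusted p under 0.05 by edgeR's quasi-likelihood test with genotype taken into account. Of these, 231 rose (1.91%) and 329 fell (2.71%), and more falls than rises were large, with 183 falls and 81 rises beyond 2-fold. All 6 day 44 libraries were below all 6 day 30 libraries for 307 genes (2.53%) and above them for 119 (0.981%). The median log2 fold change of all tested genes was 0.02. Scaling by RLE factors over all 90 libraries, 3 of which were nearly empty, moved that median to 0.20 and the calls to 757 higher and 225 lower. With those 3 libraries left out, none of them among the 12 compared, RLE factors gave 259 higher and 384 lower. When each of the 12 libraries was left out in turn, 125 of the 231 rises and 201 of the 329 falls were called every time. With replicate c left out of every group, 406 genes were called, 159 higher and 247 lower.

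The steepest falls were of immediate-early transcription factors. FOS, which pairs with JUN proteins to form the transcription factor AP-1, stood at 194, 182 and 103 CPM in parental replicates a, b and c at day 30 and at 171, 207 and 63.4 CPM in the transduced ones. At day 44 its level was 2.13, 3.87 and 4.36 CPM in parental and 3.06, 6.18 and 3.9 CPM in transduced cells. Every day 44 library was thus far below every day 30 library, and the log2 fold change was −5.26 ± 0.35 (SE, n = 6 libraries a day, adjusted p = 1.72e-18). FOSB, its close relative, fell by 5.25 ± 0.54 on the log2 scale, from 21.1 to 177 CPM at day 30 to 0.623 to 3.87 CPM at day 44. EGR1, a zinc finger factor induced by serum and stress, ran from 330 to 1270 CPM at day 30, with a median of 644 CPM, and from 51.9 to 230 CPM at day 44. Its highest day 44 library was transduced replicate b, which was also the highest of its genotype at day 30, and the groups did not overlap (log2 fold change −2.99 ± 0.42). ATF3, a stress-induced repressor, fell from a median of 149 to 11.5 CPM, and KLF6, a zinc finger factor induced by injury, from 515 to 67.5 CPM, with no overlap in either.

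Of 26 tested immediate-early genes, 22 fell and none rose, with a median log2 fold change of −2.62 beside 0.02 for all genes. For 17 of the 26 all day 44 libraries were below all day 30 libraries. The 22 included JUN, JUNB and JUND, the partners of FOS, MYC, a growth regulator, and NR4A1 and NR4A2, orphan nuclear receptors. They also included the brakes of this response, among them DUSP1, a phosphatase of MAP kinases, which fell from 171 to 489 CPM to 38.3 to 65 CPM (log2 fold change −2.81 ± 0.23, adjusted p = 3.46e-15). ZFP36, which destabilises short-lived mRNAs, fell by 2.05 ± 0.25 on the log2 scale, and PPP1R15A, a phosphatase subunit that restores translation after stress, by 3.28 ± 0.36. Without replicate c the same number of genes on the list, 22, was called lower. The list also had 21 falls and no rise between the same days in the cultures labelled as freshly differentiated.

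**Figure D1:**
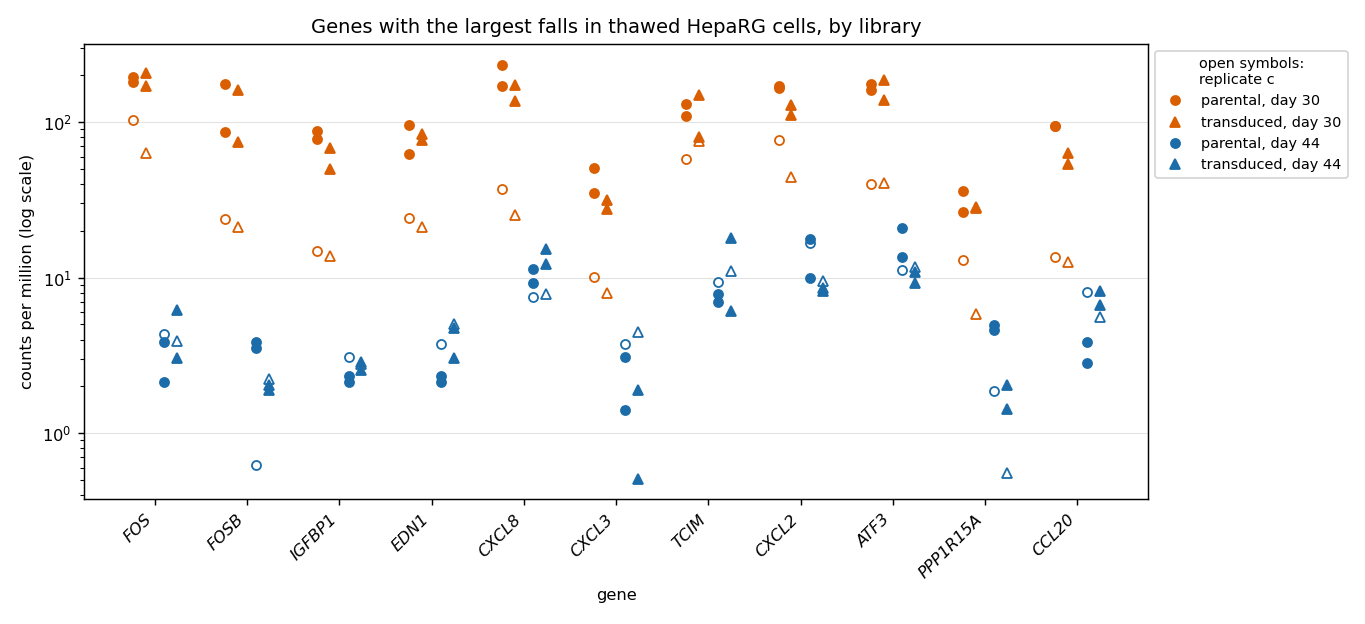
Level in CPM (log axis) of 11 of the 12 genes with the largest falls, with circles for parental and triangles for transduced libraries, orange for day 30 and blue for day 44, and open symbols for replicate c. Each gene has 6 libraries a day, and all day 44 symbols lie below all day 30 symbols, with the open day 30 symbols lowest in each genotype; FOS spans 63.4 to 207 at day 30 and 2.13 to 6.18 at day 44.

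Chemokine genes of the NF-kB programme fell alongside. CXCL8, the main neutrophil attractant, stood at 234, 170 and 37.2 CPM in parental replicates a, b and c at day 30 and at 174, 137 and 25.4 CPM in transduced ones. At day 44 it stood at 11.3, 9.29 and 7.47 CPM in parental and 12.3, 15.2 and 7.8 CPM in transduced cells. Both replicate c libraries were the lowest of day 30 but still above all day 44 libraries, and the log2 fold change was −3.59 ± 0.32 (adjusted p = 1.32e-13). CXCL2, a related attractant, was at 166, 171 and 76.4 CPM in parental and 111, 129 and 44.4 CPM in transduced cells at day 30, and between 8.17 and 17.8 CPM at day 44 (log2 fold change −3.32 ± 0.27). CXCL3 (−3.38 ± 0.35), CXCL1 (−2.69 ± 0.28) and CCL20 (−3.18 ± 0.37), which draws dendritic cells and lymphocytes, fell as well. NFKBIA, the inhibitor that NF-kB induces to shut itself off, went from 97.8 to 281 CPM to 58.5 to 72.3 CPM, again without overlap (log2 fold change −1.58 ± 0.16, adjusted p = 3.21e-13). Of 20 tested members of the list, 11 fell and none rose, with a median of −1.01, and 11 were called lower without replicate c.

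The promoters of CXCL8, CXCL1, CXCL2, CXCL3 and NFKBIA are shown because they share the letters of one NF-kB site. GGAATTTCC was searched on both strands in the 250 bases before the RefSeq start of each gene (GRCh38.p14, hg38), and 0.428% of 27305 promoters held it. Of the 20 list members matched to a promoter, 11 held it, namely CXCL1, CXCL2, CXCL3, CXCL5, CXCL6, CXCL8, CXCL10, NFKB1, NFKBIA, NFKBIZ and ICAM1. Among these, CXCL5, CXCL6 and NFKB1 were not called lower, whereas CCL20, which fell, did not hold it. A match is a description of the letters and not a test of binding. Windows of 60 bases are printed 5′ to 3′ on the strand of the gene, with the matching letters in capitals; in NFKBIA the match is on the opposite strand, and its capitals read as the reverse complement.
CXCL8 (chr4:73740452-73740511, plus strand, match 91 to 83 bases before the start): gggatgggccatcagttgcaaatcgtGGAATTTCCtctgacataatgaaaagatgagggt
CXCL1 (chr4:73869289-73869348, plus strand, 78 to 70 bases before): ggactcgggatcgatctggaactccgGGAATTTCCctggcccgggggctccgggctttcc
CXCL2 (chr4:74099239-74099298, minus strand, 77 to 69 bases before): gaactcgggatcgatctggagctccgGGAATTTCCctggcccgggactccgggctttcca
CXCL3 (chr4:74038734-74038793, minus strand, 78 to 70 bases before): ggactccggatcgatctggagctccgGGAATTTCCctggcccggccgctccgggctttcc
NFKBIA (chr14:35404797-35404856, minus strand, 81 to 73 bases before): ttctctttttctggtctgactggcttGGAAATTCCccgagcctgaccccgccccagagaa
CXCL1, CXCL2 and CXCL3 lie near each other on chromosome 4 and are close paralogs, so reads may have been assigned to the wrong one of them and their values are uncertain.

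Among immediate-early genes, 4 of 22 with a promoter held TGACGTCA, the palindromic site of the CREB and ATF family, beside 1.77% of all promoters. These were DUSP1, PPP1R15A, JUND and MAFF. All 4 fell, as did 22 of the 26 tested members of the list, so their falls do not set them apart.
DUSP1 (chr5:172771287-172771346, minus strand, match 125 to 118 bases before the start): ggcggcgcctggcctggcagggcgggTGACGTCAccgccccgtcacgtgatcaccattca
PPP1R15A (chr19:48872337-48872396, plus strand, 58 to 51 bases before): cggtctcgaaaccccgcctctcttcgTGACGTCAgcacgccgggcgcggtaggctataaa
JUND (chr19:18281789-18281848, minus strand, 200 to 193 bases before): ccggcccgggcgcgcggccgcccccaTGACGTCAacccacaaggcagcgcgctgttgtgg
The CArG box, the binding motif of serum response factor, was found by its consensus in 1 of these 22 promoters, that of EGR1, and in 1.14% of all promoters.

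Secreted factors and feedback genes made up most of the other large falls. IGFBP1, an insulin-repressed binding protein of insulin-like growth factors, was at 13.7 to 87.9 CPM at day 30, with a median of 58.8 CPM, and at 2.13 to 3.11 CPM at day 44 (log2 fold change −4.23 ± 0.45, adjusted p = 9.65e-11). EDN1, the vasoconstrictor peptide endothelin, went from 21.1 to 95.6 CPM to 2.13 to 5.02 CPM (−4.10 ± 0.32). TCIM, a small regulator of Wnt signalling, went from 58.2 to 150 CPM to 6.13 to 18.1 CPM (−3.35 ± 0.26). None of these 3 genes overlapped between the days. GDF15, a stress hormone (−1.89 ± 0.22), ADM, a vasodilator peptide (−2.44 ± 0.31), and PDK4, a kinase that blocks pyruvate oxidation (−2.58 ± 0.36), also fell.

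Glucocorticoid-responsive genes did not move as one, although hydrocortisone was in the medium of all cultures. Of 19 tested, 6 fell (DUSP1, NFKBIA, IGFBP1, SGK1, PDK4 and MT2A) and 1 rose. The riser was TSC22D3, a leucine zipper protein induced by glucocorticoids, with 125 to 161 CPM at day 30 and 167 to 276 CPM at day 44 (log2 fold change 0.54 ± 0.11, adjusted p = 1.78e-04). SGK1, a kinase of the same response, fell by 1.61 ± 0.21 on the log2 scale. A joint list of targets of YAP, the effector of the Hippo pathway, and of the growth factor TGF-beta had 3 falls among 19 tested. They were CCN1 (−2.23 ± 0.23), CCN2 (−1.61 ± 0.23) and ANKRD1 (−1.60 ± 0.18). ANKRD1 went from 659 to 1710 CPM to 297 to 553 CPM, with no overlap.

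ID proteins, which bind and block helix-loop-helix transcription factors and are targets of BMP signalling, fell together. ID2 was at 385 to 821 CPM at day 30, with a median of 610 CPM, and at 105 to 169 CPM at day 44, and its log2 fold change of −2.15 ± 0.13 had an adjusted p of 2.38e-28. ID3 fell from 79.8 to 163 CPM to 12.8 to 45.5 CPM (−2.30 ± 0.18) and ID1 from 48.6 to 85 CPM to 13.5 to 29.9 CPM (−1.75 ± 0.27). No library of one day reached the range of the other in any of the 3. Of 10 tested members of the list, 5 fell, the others being BAMBI and BMP2, and 3 kept their call with each library left out in turn.

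Proliferation genes were lower at day 44. NUSAP1, a spindle protein, was at 70 to 105 CPM at day 30 and at 24 to 57.5 CPM at day 44 (log2 fold change −1.39 ± 0.16, adjusted p = 8.47e-12). CDK1, the kinase that drives mitosis, was at 16 to 30.7 CPM and then at 6.18 to 15.6 CPM (−1.45 ± 0.22, adjusted p = 2.38e-07). CCNB1, its cyclin, went from 69 to 98.7 CPM to 19.1 to 39 CPM (−1.47 ± 0.23). For these 3 genes the days did not overlap, although the lowest CDK1 library of day 30 was only just above the highest of day 44. RRM2, which supplies deoxynucleotides for DNA synthesis (−1.37 ± 0.20), TOP2A, a topoisomerase (−1.03 ± 0.23), and PCNA, the sliding clamp of replication (−0.57 ± 0.14), also fell. Of 35 tested genes of the list 18 fell and none rose, with a median of −1.18, and 15 were called lower without replicate c. MKI67, a common proliferation marker, did not pass the test, with 11.6 to 15.9 CPM at day 30 and 3.1 to 13.5 CPM at day 44 (−0.53 ± 0.27, adjusted p = 0.284).

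The cell cycle promoters held the CCAAT box, bound by NF-Y, in 23 of 29 cases beside 33.0% of all promoters. TTTGAA, the CHR element of genes expressed in mitosis, was found in 10 of 29 beside 13.6% of all promoters. Both CDK1 and PLK1, a mitotic kinase, held both.

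Of 9 tested biliary and progenitor markers 4 fell (SPP1, AFP, SOX4 and SOX9) and none rose, with a median of −0.06. SPP1, the secreted phosphoprotein osteopontin, fell from 32.6 to 57.1 CPM to 17.4 to 29.1 CPM (−1.06 ± 0.17, adjusted p = 1.01e-06), while KRT19, a biliary keratin, was at 182 to 237 CPM and then at 178 to 303 CPM and did not pass (adjusted p = 0.337). AFP, the foetal counterpart of albumin, was called lower over both genotypes (adjusted p = 0.00395), and its values in the genotypes were as follows. In parental cells it was at 8.48, 4.11 and 7.44 CPM at day 30 and at 4.96, 3.87 and 6.85 CPM at day 44, whereas in transduced cells it was at 4.33, 3.21 and 3.17 CPM and had no count at day 44. In the test of the difference between genotypes it was not called, and without replicate a its adjusted p was 0.0689. SOX4, a progenitor transcription factor (−0.81 ± 0.22, adjusted p = 0.0125), and SOX9, a biliary one (−1.11 ± 0.34, adjusted p = 0.0375), overlapped between the days. Neither kept its call with each library left out in turn, with adjusted p up to 0.112 for SOX4 and up to 0.152 for SOX9.

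Drug-metabolising P450 enzymes were higher at day 44. CYP2B6, an enzyme induced through the nuclear receptor CAR, was at 30.1, 38.2 and 46 CPM in parental and 26, 30.5 and 46 CPM in transduced cells at day 30. It was at 160, 104 and 140 CPM in parental and 75.1, 128 and 98.6 CPM in transduced cells at day 44, with every library above all of day 30 (log2 fold change 1.68 ± 0.26, adjusted p = 2.97e-06). CYP2C8, which metabolises paclitaxel, was at 88.3 to 195 CPM and then at 234 to 464 CPM, also without overlap (1.40 ± 0.14, adjusted p = 4.32e-14). CYP3A4, the main drug-metabolising P450 of adult liver, was at 1650, 1730 and 1870 CPM in parental and 1160, 879 and 1130 CPM in transduced cells at day 30. At day 44 it was at 3740, 4040 and 3630 CPM in parental and 2120, 1520 and 2280 CPM in transduced cells (1.01 ± 0.22, adjusted p = 9.48e-04). The days overlapped for CYP3A4 when the genotypes were pooled, with parental libraries above transduced ones on both days, but within each genotype all day 44 libraries were above all day 30 libraries. Without replicate c its adjusted p was 0.0602, at the smaller number of libraries.

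The list of these enzymes also holds CYB5A, cytochrome b5, which is not a P450. Of its 17 tested genes 8 rose and none fell, with a median of 0.51. All 8 rises were of P450 genes and kept their call with each library left out in turn. These rises included CYP2C8, CYP2C19, CYP2B6, CYP2E1, CYP3A4, CYP2A7 and CYP2A6. CYP2C19, which activates clopidogrel, rose from 9.47 to 20.6 CPM to 34.7 to 42.6 CPM (1.39 ± 0.21), and CYP2E1, which oxidises ethanol, from 188 to 262 CPM to 273 to 491 CPM (0.81 ± 0.17). Values of CYP2A6 and CYP2A7, of the CYP2C genes and of CYP2B6 and its pseudogene CYP2B7P, which rose by 1.32 ± 0.22 on the log2 scale, are uncertain where reads of near-identical genes could be split. CYP3A5 (0.08 ± 0.13) and CYP1A2 (0.47 ± 0.46) did not pass the test. CYP2D6 itself was not called in the parental or the transduced cells (adjusted p = 0.402 and 0.661).

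The summed level of the list was 3890, 4140 and 4240 CPM in parental replicates and 2950, 2510 and 2880 CPM in transduced replicates at day 30. At day 44 it was 7280, 7560 and 7130 CPM in parental and 4450, 3660 and 4720 CPM in transduced replicates. Within each genotype the ranges of the days did not overlap, and day 30 replicate c was the highest parental and the middle transduced library.

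Promoters of these enzymes are shown for the letters CAAAGTCCA, a form of the DR1 element bound by HNF4A, the nuclear receptor that maintains hepatocyte identity. It was found in 5 of 15 promoters of the list (CYP2A6, CYP2A7, CYP2A13, CYP2B6 and CYP2C8) and in 0.293% of all promoters. CYP2A13 was not among the rises, whereas CYP2C19 and CYP2E1, which rose, did not hold it. CYP2A6 and CYP2A7 are near-identical, so their matches are not independent. Binding was not tested. In CYP2B6 the match is on the opposite strand.
CYP2B6 (chr19:40991032-40991091, plus strand, match 231 to 223 bases before the start): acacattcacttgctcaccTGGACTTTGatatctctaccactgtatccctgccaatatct
CYP2C8 (chr10:95069517-95069576, minus strand, 53 to 45 bases before): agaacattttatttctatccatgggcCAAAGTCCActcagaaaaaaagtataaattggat
CYP2A6 (chr19:40850470-40850529, minus strand, 56 to 48 bases before): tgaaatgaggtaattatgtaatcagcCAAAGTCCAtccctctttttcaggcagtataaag
HNF4A itself was at 69.4 to 211 CPM at day 30 and 99.1 to 372 CPM at day 44 and did not pass the test (0.61 ± 0.40, adjusted p = 0.468).

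Conjugating enzymes and transporters had fewer calls. UGT2B4, a glucuronidation enzyme, rose from 109 to 184 CPM to 188 to 373 CPM (0.87 ± 0.13, adjusted p = 1.12e-07), 1 of 2 rises among 20 glucuronidation and sulfation genes. Of 24 transporters 4 rose and none fell, with a median of 0.59. SLC22A7, an organic anion carrier, rose by 1.00 ± 0.23 on the log2 scale, but no transporter was free of overlap between the days. Of 43 other phase I and II genes 6 rose and 2 fell, with a median of 0.03. The falls were ALDH3A1, an aldehyde dehydrogenase, from 69.4 to 95.4 CPM to 20.9 to 40.4 CPM (−1.63 ± 0.15, adjusted p = 5.5e-16), and GSTA2, a glutathione transferase, from 1180 to 1600 CPM to 600 to 1040 CPM (−0.65 ± 0.12). GSTA2 shares much of its sequence with other GSTA genes, so its value is uncertain.

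**Figure D2:**
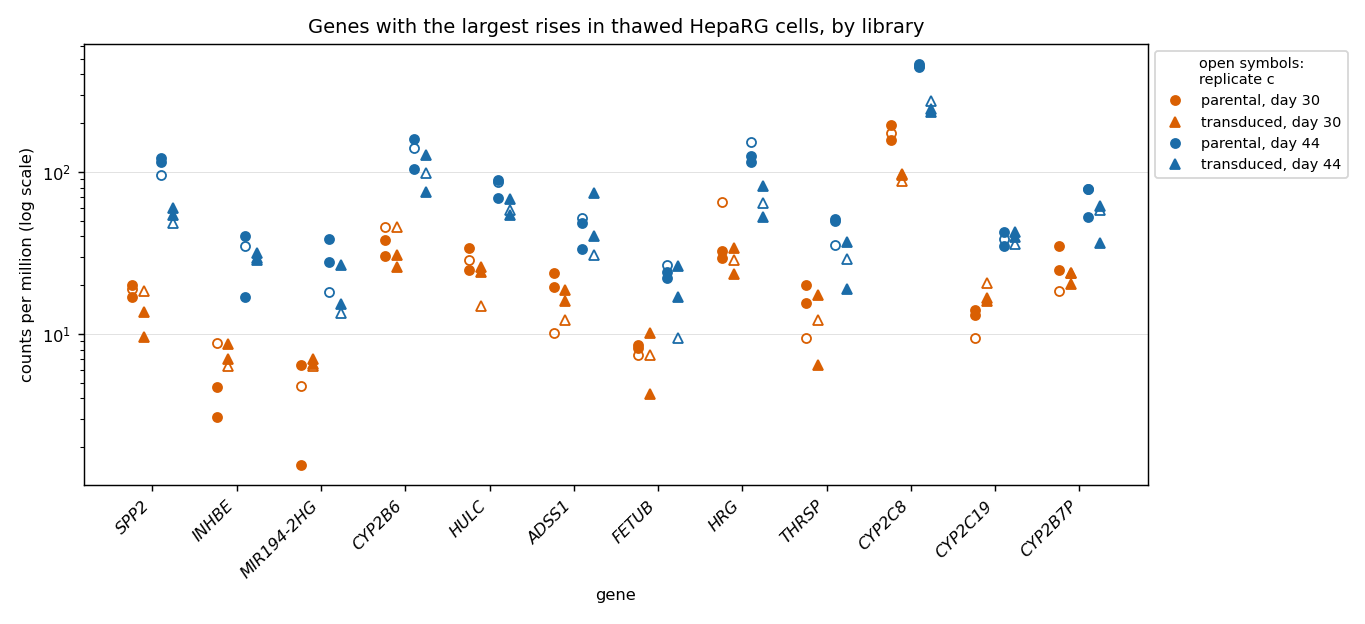
Level in CPM (log axis) of the 12 genes with the largest rises, with circles for parental and triangles for transduced libraries, orange for day 30 and blue for day 44, and open symbols for replicate c. SPP2 spans 9.62 to 20 at day 30 and 48.5 to 122 at day 44, and the open day 30 symbols are not set apart as they are in the falls.

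Secreted liver proteins held many of the rises. SPP2, a secreted phosphoprotein of liver, had the largest, from 17, 20 and 18.9 CPM in parental and 13.7, 9.62 and 18.5 CPM in transduced cells at day 30 to 115, 122 and 95.9 CPM in parental and 60.3, 54.6 and 48.5 CPM in transduced cells at day 44. The days lay well apart in both genotypes, and the log2 fold change was 2.26 ± 0.20 (adjusted p = 1.32e-16). INHBE, a hepatokine of the activin family, rose from 3.08 to 8.79 CPM to 17 to 40.2 CPM (2.24 ± 0.33), and TF, the iron carrier transferrin, from 1360 to 1720 CPM to 2700 to 4760 CPM (1.13 ± 0.12, adjusted p = 1.4e-12), both without overlap. Of 42 tested plasma protein genes 18 rose and 1, AFP, fell, with a median of 0.48, and 12 of the 18 kept their call with each library left out in turn. Some members of the list did not pass the test. Albumin (ALB) was at 9180 to 13200 CPM and then at 11800 to 19600 CPM (0.46 ± 0.17, adjusted p = 0.121). The log2 fold change was 0.09 ± 0.18 for SERPINA1, the protease inhibitor antitrypsin, 0.04 ± 0.19 for HP, the haemoglobin carrier haptoglobin, and −0.08 ± 0.15 for FGB, a fibrinogen chain.

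Clotting genes, inhibitors included, were among the secreted rises. SERPIND1, which is heparin cofactor, went from 77.5 to 154 CPM to 161 to 319 CPM without overlap (1.05 ± 0.13, adjusted p = 6.77e-10). SERPINC1, which is antithrombin, went from 327 to 582 CPM to 447 to 1310 CPM (0.90 ± 0.12), and F12, the contact factor, from 16.6 to 36.2 CPM to 49.6 to 76 CPM (0.99 ± 0.20). Of 23 coagulation genes 6 rose and 1 fell, and of 26 complement genes 6 rose and none fell. CFB, complement factor B, rose by 0.59 ± 0.11.

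Genes of the acute phase and inflammation moved unevenly: of 21 tested, 7 fell and none rose, with a median of −0.13. The falls were SAA1, SAA2, LCN2, SLPI, NFKBIA, TNFAIP3 and ICAM1, the last of which, with NFKBIA and TNFAIP3, were already counted in the chemokine list. SAA2, a serum amyloid whose near copy SAA1 shares reads with it, was at 4800 to 8050 CPM and then at 3340 to 4640 CPM, which did not overlap (−0.77 ± 0.16, adjusted p = 3.73e-04). SAA1 fell by 0.65 ± 0.15. With RLE factors over all 90 libraries, which moved the median of all genes up as given above, 6 genes of this list rose and 6 fell and its median was 0.05. With RLE factors without the nearly empty libraries 2 rose and 7 fell and the median was −0.12. Metal-binding MT1E, a metallothionein, fell from 2090 to 2510 CPM to 1090 to 1360 CPM (−0.89 ± 0.12, adjusted p = 1.11e-08), 1 of 3 falls among 11 such genes, which are near copies of each other.

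Calls among lipid transport and lipid synthesis genes were nearly all rises. Of 20 apolipoprotein and lipoprotein assembly genes 8 rose and none fell, with a median of 0.47. APOC1, a small protein of several lipoproteins, went from 2330 to 3120 CPM to 3450 to 5950 CPM (0.80 ± 0.12), and APOC3, which slows the clearance of triglyceride-rich particles, from 15100 to 26100 CPM to 28900 to 48000 CPM (0.85 ± 0.20), both without overlap. APOA1, the main protein of HDL, did not pass (0.36 ± 0.16, adjusted p = 0.228). Of 28 lipogenesis and lipid droplet genes 7 rose and 1 fell. THRSP, an activator of lipogenic genes, rose by 1.42 ± 0.25, from 6.41 to 20 CPM to 19 to 51.1 CPM, and GPAM, which begins triglyceride synthesis, by 0.79 ± 0.15.

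Of 21 genes of glucose, fructose and glycogen metabolism 4 rose and 1, IGFBP1, fell, with a median of 0.27. PCK2, the mitochondrial enzyme that makes phosphoenolpyruvate, rose from 112 to 195 CPM to 131 to 354 CPM, with overlap between the days (0.60 ± 0.13). LSS, a late enzyme of sterol synthesis, rose from 20.8 to 29.9 CPM to 39.3 to 61.7 CPM (0.87 ± 0.18), 1 of 2 rises among 25. In bile acid synthesis CYP8B1, which makes cholic acid, was the only rise among 20 genes (1.00 ± 0.24), and CYP7A1, the rate-limiting enzyme, did not pass (−0.85 ± 0.31, adjusted p = 0.0933). Fatty acid oxidation, with 3 rises and 1 fall among 29 genes, and the urea cycle with amino acid catabolism, with 3 rises and 2 falls among 35, had medians of 0.09 and 0.10.

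The targets of ATF4, which answers shortage of amino acids, split in both directions. Of 20 tested, 7 rose, including SHMT2 of serine metabolism (0.67 ± 0.13) and AARS1, a tRNA synthetase (0.70 ± 0.14), and 3 fell, PPP1R15A, GDF15 and ATF3. All 3 falls but only 2 of the 7 rises kept their call with each library left out in turn. Chaperones of the endoplasmic reticulum (20 tested), interferon genes (23), HLA class II and antigen presentation genes (17) and actin genes (30) had no call in either direction.

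Of 27 nuclear receptors and liver transcription factors 3 rose and 1 fell. NR1I3, the receptor CAR that induces CYP2B6, went from 9.62 to 30.1 CPM to 21.7 to 48.9 CPM, with overlap between the days (1.00 ± 0.24, adjusted p = 0.00262). ONECUT2, a homeobox factor of liver development, rose by 1.16 ± 0.27, and PROX1, another, by 0.94 ± 0.25. Noncoding HULC, an RNA abundant in liver cancer, rose from 14.8 to 33.9 CPM to 54.6 to 89.8 CPM, without overlap (adjusted p = 1.11e-10). DCN, the matrix proteoglycan decorin and a stellate and fibroblast marker, rose from 8.02 to 12.3 CPM to 18.4 to 31.4 CPM (1.20 ± 0.20), the single call among 8 such markers. FN1, fibronectin, rose from 219 to 337 CPM to 376 to 499 CPM (0.65 ± 0.13), the only call among 23 matrix and protease genes.

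Ribosomal protein genes showed a small shift whose calls depended on the fit. Of 75 tested, 4 fell and none rose, with a median of −0.23. For 36 of the 75 all day 44 libraries were below all day 30 libraries, and with only the 12 compared libraries in the fit 57 were called lower. DESeq2 called 19. These genes have many near-identical copies. Nuclear genes of oxidative phosphorylation had 2 falls among 39 and a median of −0.15, which was −0.14 with RLE factors without the nearly empty libraries and 0.04 with those over all libraries, where the median of all genes was 0.20.

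The thawed cultures were also taken at days 32 and 37, which places the change in time. FOS had a mean of 153 ± 57.1 CPM (SD, n = 6 libraries, as for all means here) at day 30, and of 1.58 ± 0.644 CPM without DMSO and 2.82 ± 1.57 CPM with it at day 32. The low level of day 44, 3.92 ± 1.36 CPM, was therefore present at day 32 under both labels. CXCL8 followed the same course, from 130 ± 82.3 CPM to 5.04 ± 2.12 and 3.88 ± 1.36 CPM at day 32 and 10.6 ± 2.96 CPM at day 44. For ID2 the means were 625 ± 164 CPM at day 30, 115 ± 7.88 and 151 ± 10.9 CPM at day 32 and 141 ± 26.8 CPM at day 44. CDK1 took another course. It was at 25.1 ± 5.21 CPM at day 30, at 34.5 ± 6.19 CPM without DMSO and 29.1 ± 7.04 CPM with it at day 32, and at 6.59 ± 2.76 CPM at day 37 and 9.18 ± 3.32 CPM at day 44. ALDH3A1 was at 86.2 ± 10 CPM at day 30, higher at day 32 with 174 ± 20.6 CPM without and 211 ± 24 CPM with DMSO, and at 28.2 ± 7.56 CPM at day 44.

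Of the hepatocyte genes, CYP3A4, CYP2B6 and APOC3 had lower means at day 32 than at days 30 and 37, while CYP2C8 did not, with 134 ± 46.2 CPM at day 30 and 200 ± 41.3 CPM without and 144 ± 37.5 CPM with DMSO at day 32. CYP3A4 had means of 1400 ± 398 CPM at day 30, 174 ± 40.8 CPM at day 32 without DMSO, 535 ± 97.9 CPM at day 32 with DMSO, 3120 ± 1040 CPM at day 37 and 2890 ± 1040 CPM at day 44. CYP2B6 had 36.1 ± 8.61 CPM at day 30, 9.67 ± 2.2 CPM without and 30.3 ± 6.51 CPM with DMSO at day 32, 144 ± 36.2 CPM at day 37 and 118 ± 30.8 CPM at day 44. For APOC3 the means were 20600 ± 4270 CPM at day 30, 7470 ± 1230 and 7700 ± 1330 CPM at day 32, 31400 ± 6900 CPM at day 37 and 37500 ± 8620 CPM at day 44. For CYP3A4 and CYP2B6 the means of days 37 and 44 lay within 1 SD of each other, while TF had 2700 ± 395 CPM at day 37 and 3560 ± 793 CPM at day 44. The SDs were taken over both genotypes, and for CYP3A4 at day 44 they include the higher level of parental libraries. These means at days 32 and 37 are described and were not tested.

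**Figure D3:**
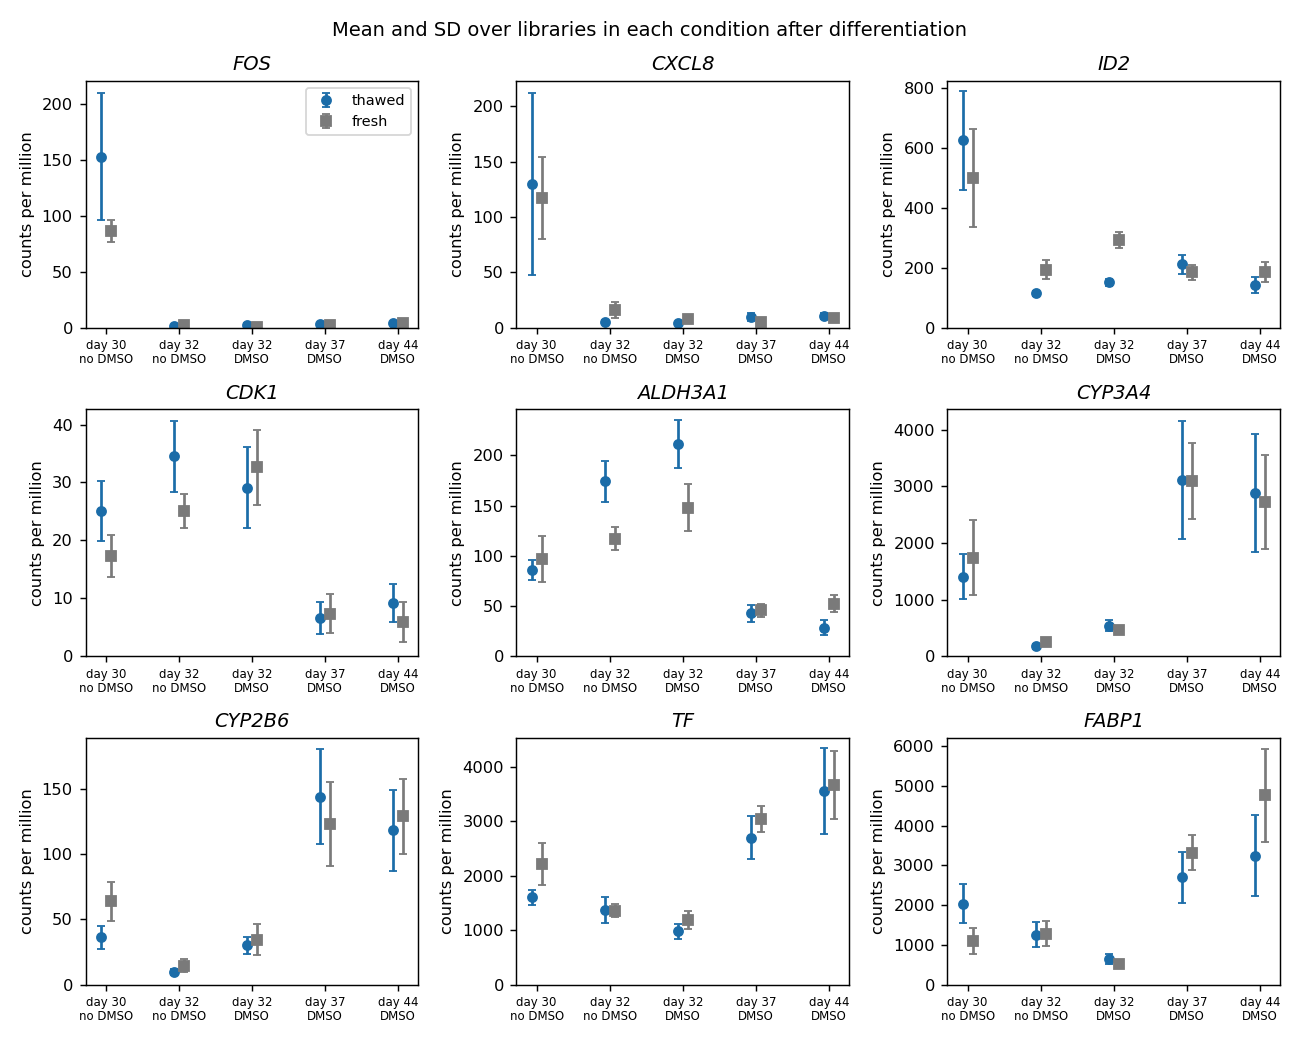
Mean level in CPM with SD (error bars) of 9 genes at days 30, 32, 37 and 44 in thawed (blue circles) and fresh (grey squares) cultures, with n = 6 libraries a point except n = 5 for fresh cells at day 30. FOS in thawed cells has a mean of 153 at day 30 and 1.58 at day 32 without DMSO, and CYP3A4 one of 174 there and 2890 at day 44.

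Parental cells alone had 294 calls (2.42%), 113 higher and 181 lower, and transduced cells alone 167 (1.38%), 47 higher and 120 lower. The genotypes share no library, but replicate c stood apart at day 30 in both, as given above. The parental count was 168 without day 30 replicate a and 190 without day 44 replicate b. The transduced count was 110 and 107 without day 30 replicates a and b in turn and 106 without day 44 replicate a. Of the falls 89 were called in both, 49.2% of the parental and 74.2% of the transduced falls, and of the rises 26 were called in both, 23% and 55.3% in that order. No gene was called in opposite directions. Across 4332 genes of at least 20 CPM the log2 fold changes of the genotypes had a Pearson correlation of 0.767, a description across genes that are not independent. Tested directly, the change differed between genotypes for 0 genes (0.0%) by edgeR's quasi-likelihood test, with 473 genes at an unadjusted p under 0.05, and for 0 by DESeq2. The fit to the 12 libraries alone called 1 and that to the thawed libraries alone called 2. NEAT1, a nuclear noncoding RNA that scaffolds paraspeckles, was among those with the smallest p, with a log2 fold change of 0.42 in parental and 1.57 in transduced cells (difference 1.14 ± 0.26, adjusted p = 0.139).

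Freshly differentiated cultures of the same lines gave 1535 calls between the same days and labels (12.7%), 793 higher and 742 lower. They had 11 usable libraries. A further one, parental day 30 replicate c, was nearly empty, with 505 counts. It stayed in this fit but was left out of the CPM values. With the 3 nearly empty libraries left out of the fit, 1598 genes were called. Without fresh day 30 parental replicate a the count was 951. Thawed and fresh cultures share no library. Of the thawed falls 176 were also called lower in fresh cells, 53.5% of the thawed and 23.7% of the fresh falls, and of the rises 109 were called higher, 47.2% of the thawed and 13.7% of the fresh rises. Of the thawed calls, 4 rises were called lower and 3 falls were called higher in fresh cells. FOS had log2 fold changes of −5.26 in thawed and −4.25 in fresh cells, and DUSP1 of −2.81 and −2.74.

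The change itself differed between thawed and fresh cells for 516 genes (4.26%), with 189 more positive (1.56%) and 327 more negative (2.7%) in thawed cells. This count was 184 without fresh day 30 parental replicate a, 330 without fresh day 30 transduced replicate a, and 1232 and 38 in the 2 directions with RLE factors over all libraries, which moved the median of all genes to 0.42. FABP1, the fatty acid carrier of liver, rose by 0.64 in thawed cells, from 1440 to 2540 CPM to 2050 to 4260 CPM, and by 2.11 in fresh cells, from 752 to 1550 CPM to 3470 to 5940 CPM (difference −1.47 ± 0.17, adjusted p = 1.37e-09). The fresh libraries lay mostly lower than the thawed ones at day 30 and mostly higher at day 44. GPX2, a glutathione peroxidase of epithelia, changed by −0.29 in thawed cells and rose by 1.62 in fresh cells (difference −1.91 ± 0.25, adjusted p = 6.2e-07). APOB, the core protein of very-low-density lipoprotein, went the other way, from 357 to 634 CPM to 549 to 856 CPM in thawed cells (0.52) and from 761 to 1780 CPM to 441 to 695 CPM in fresh cells (−0.92), and the difference was 1.45 ± 0.21 (adjusted p = 2.73e-06). The rise of APOB in thawed cells (adjusted p = 0.0149) was not called without day 30 parental replicate a (0.0653) or day 30 transduced replicate b (0.0703).

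Several genes of the lists above were part of that difference. ID2 (difference −0.71 ± 0.18, adjusted p = 0.0118) and ALDH3A1 (−0.78 ± 0.21, adjusted p = 0.0219) fell further in thawed cells. MT1E, which fell by 0.89 on the log2 scale in thawed cells, was at 1280 to 1750 CPM at day 30 and 1330 to 1660 CPM at day 44 in fresh cells (difference −0.84 ± 0.18, adjusted p = 0.00212). In the other direction CCL2, a monocyte attractant, fell by 1.23 in thawed and by 2.76 in fresh cells (adjusted p = 0.00558), and the centromere gene CENPF fell by 1.16 and by 2.78 (adjusted p = 0.00247). FN1 rose in thawed cells and fell by 0.37 in fresh ones (difference 1.02 ± 0.18, adjusted p = 2.78e-04).

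Transcript length differed between the genes on either side of that difference. The longest annotated transcript had a median of 6213 bases among the genes more positive in thawed cells and of 1822 bases among the more negative ones, beside 3606 bases for all tested genes. Within thawed cells the medians were 3458 bases for rises and 2354 bases for falls, and within fresh cells 2064 bases for rises and 3958 bases for falls. The part of transcript length in these calls was not tested.

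**Figure D4:**
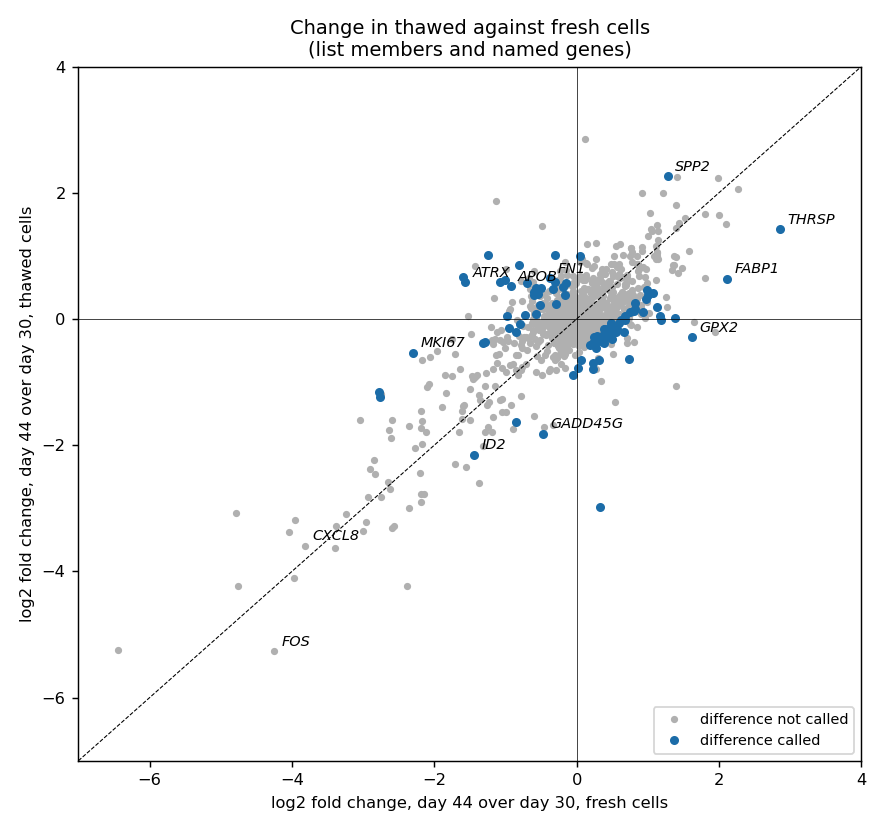
Log2 fold change from day 30 to day 44 in fresh cells (horizontal) and thawed cells (vertical) for 1012 list members and named genes, with blue points for the 94 whose difference was called, and a dashed line of equal change. FOS and CXCL8 lie at the lower left near the line, FABP1 lies below it at 2.11 and 0.64, and APOB lies above it at −0.92 and 0.52.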

How the data were processed

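Total RNA of HepaRG cultures, 10 ng a library, was reverse transcribed with template switching, amplified and tagmented, per the labels. BWA 0.7.4.4 and the builds hg38 and mm10 are named in the submitters' processing notes without their roles. The authors deposited unscaled read counts for each gene symbol; how reads were counted, and whether by strand, is not given in the sources used here.

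A model with 1 mean for each of 30 groups was fitted to the counts of all 90 libraries with edgeR 4.0.16 in R 4.3.3 (TMM factors, filterByExpr, robust quasi-likelihood fit, 60 residual degrees of freedom). Of 28307 genes, 3172 had no count and 12125 were tested. The contrast of day 44 against day 30 gave both genotypes equal weight. A call is a Benjamini-Hochberg adjusted p under 0.05 over all tested genes. CPM and log2 values were computed here. The SE of a log2 fold change was taken as its absolute value divided by the square root of the test's F statistic. It thus rests on the spread estimated over all 90 libraries and not on the compared libraries alone. On simulated counts for this comparison over 12227 genes, 34% of genes changed 1.5-fold and 92% of those changed 2-fold were called, as were 10 of 12027 unchanged genes. The changed genes were drawn only from those above a minimum expected count. Every gene was given the same spread (dispersion 0.0435), and the nearly empty libraries were left out. These rates therefore do not carry over to genes with low counts or a larger spread.

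Genes were named as the 12 largest rises and falls of at least 20 CPM with the same sign in both genotypes, up to 4 called members of each list with the smallest p, cell type markers, and the 6 largest differences in each direction between thawed and fresh cells; a few of them are not reported here. The members and lists were chosen with earlier results of these data known, and other genes were picked after their values were seen. Promoters are from RefSeq (GRCh38.p14) and transcript lengths from GENCODE.

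Alternatives were RLE factors, a replicate block by letter, no filter or a mean count minimum of 10, fits without the 3 nearly empty libraries or with the compared libraries only, DESeq2 1.42.0, and leaving out replicates. RLE factors without the nearly empty libraries, the thawed libraries only, and the compared libraries with RLE factors or a replicate block were added after seeing the data. Libraries of 1 group differed by 2.39 to 9.71 chi-square units per degree of freedom, more than counting noise.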

Additional observations from a re-analysis of the deposited data

Results flagged for a closer look

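For 516 genes the change from day 30 to day 44 differed between thawed and fresh cells in a test of the difference itself. The genes named here are those with the largest differences in log2 fold change, thawed minus fresh. More positive in thawed cells were IGFL4, a secreted signalling protein (2.26 ± 0.47), ATRX, a chromatin remodeller (2.15 ± 0.37), the proliferation marker MKI67 (1.76 ± 0.38), the antisense RNA UGDH-AS1 (1.66 ± 0.36), WFS1, an endoplasmic reticulum protein (1.66 ± 0.43), and CLGN, a chaperone (1.63 ± 0.37). MKI67 fell from 28.5 to 37.3 CPM to 3.26 to 11.5 CPM in fresh cells and was at 11.6 to 15.9 CPM and 3.1 to 13.5 CPM in thawed ones.

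More negative in thawed cells were GPX2 (−1.91 ± 0.25), FABP1 (−1.47 ± 0.17), THRSP (−1.44 ± 0.39), the noncoding RNA NRAV (−1.37 ± 0.34), CNPY3-GNMT (−1.36 ± 0.29), a readthrough gene that overlaps GNMT and whose reads cannot be told apart from it here, and GADD45G, a stress-induced growth inhibitor (−1.35 ± 0.40). GPX2 was at 260 to 393 CPM and then at 174 to 356 CPM in thawed cells, and at 117 to 234 CPM and then at 395 to 745 CPM in fresh cells. Some of these differences were not called when 1 library was left out. Without fresh day 30 parental replicate b the adjusted p was 0.0977 for THRSP, 0.0576 for NRAV and 0.114 for WFS1. For THRSP it was also 0.0543 without thawed day 30 parental replicate b and 0.059 without thawed day 30 transduced replicate a. The difference of GADD45G was lost without any 1 of 11 libraries, with adjusted p from 0.0504 to 0.124, the highest without fresh day 30 parental replicate a. With replicate a left out of every group, all genes named here as more positive in thawed cells lost their call. The adjusted p was then 0.182 for IGFL4, 0.133 for ATRX, 0.179 for MKI67, 0.169 for UGDH-AS1, 0.241 for WFS1 and 0.25 for CLGN. THRSP, NRAV and GADD45G lost theirs as well. Without replicate c of every group the adjusted p was 0.0548 for CNPY3-GNMT, 0.0696 for ATRX, 0.076 for NRAV and 0.109 for GADD45G. THRSP, WFS1, NRAV and GADD45G were also not called without replicate b of every group.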

How the results depend on the processing

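The 24 largest changes kept their direction and side of the threshold in 623 of 624 values over 26 settings, the exception being FETUB without replicate b (adjusted p = 0.0715). No named gene reversed. Calls for the change in thawed cells, 560 as reported, were 982 with RLE factors, 875 with the compared libraries only, 858 with those and RLE factors, 939 with those and a replicate block, 858 with the thawed libraries only, and 264 to 537 with replicates left out. Parental calls were 734 with the compared libraries only, 529 with those and a replicate block, 453 with the thawed libraries only, and 127 to 236 with replicates left out. Transduced calls were 108 with the compared libraries only, 293 with those and a replicate block, and 67 to 158 with replicates left out. The difference between genotypes had 1 call with the compared libraries only, 1 with those and a replicate block, and 2 with the thawed libraries only. Fresh calls were 522 to 1451 with replicates left out. The difference between thawed and fresh cells had 945 calls with DESeq2, 1270 with RLE factors, 240 without a filter, 973 with the compared libraries only, and 9 to 493 with replicates left out, the lowest without replicate a of every group. Leaving out a letter removes libraries from all 30 groups, so fewer samples enter the fit; other causes were not tested.

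A replicate block in the fit of all libraries gave 557 calls (225 higher, 332 lower). Libraries of the 2 days with the same letter had correlations of their deviations from the group means of −0.00234, −0.0166 and −0.00269 in parental and 0.289, 0.146 and 0.0268 in transduced cells. Those with different letters ran from −0.00993 to 0.0137 in parental and from −0.252 to 0.161 in transduced cells. The letters were not taken as pairs. These correlations are within a genotype and cannot show a letter effect shared by both genotypes. At this depth, most 1.5-fold changes were missed in simulated counts.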
